A study of Homo sapiens with 6 samples.

Results

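Keratins are the intermediate filament proteins of epithelial cells. Each filament is built from obligate pairs of a type I (acidic) and a type II (basic to neutral) chain, so an epithelium expresses matched sets of both. In the mammary gland KRT5, KRT14 and KRT17 mark basal and myoepithelial cells, KRT8, KRT18 and KRT19 mark luminal cells, and KRT6A, KRT16 and KRT17 are induced in stressed or wounded stratified epithelia. The keratins described here are the amplicons whose symbol is KRT followed by digits and at most one letter, without pseudogenes and keratin-associated proteins. There were 55 of them, 29 of type I and 26 of type II, among 20812 amplicons measured. Of these amplicons 10 were spike-ins, and each gene had 1 amplicon.

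All 6 libraries were labelled as MCF10A, a benign human mammary epithelial cell line, in 3 groups of 2. The wt cells carried no transgene, the eGFP cells stably overexpressed eGFP as a control, and the GIRK1 cells stably overexpressed the KCNJ3 gene product GIRK1, a subunit of G-protein-activated inwardly rectifying potassium channels. Both transfected lines were made with a vector that also expresses eGFP, were selected with G418 and were sorted on eGFP fluorescence, so eGFP, drug and sort were shared by GIRK1 and eGFP cells and not by wt. The labels do not say whether the 2 replicates of a group were separate cultures, so p-values measure only the spread between these libraries, which may be technical.

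Reads on amplicons numbered from 2506120 to 16040556 per library, so 3 reads, the floor used here, stood for 0.187 to 1.2 RPM (reads on an amplicon scaled to a common library total). The KCNJ3 amplicon held 2408 and 3677 reads in the GIRK1 libraries, 48 in wt replicate 1 and 0 in the other 3. Wt replicate 1 stood apart and went against its label. All 12 genes of a luminal marker list were higher in it than in any other library (summed level 13220 RPM against 176 to 606), ESR1, PGR, TFF1 and TFF3 had 0 reads elsewhere, and 9 of 12 basal markers were lower in it (484 RPM against 7611 to 24710). Whether it is an MCF10A library cannot be told from these files, so it is called wt replicate 1 by its label only, was kept out of both comparisons of GIRK1 with the controls and is described on its own. The GIRK1 libraries carried a tag in their deposited names that the other 4 did not. Its meaning is not given, and should it name a sequencing run, an effect of the run and one of GIRK1 cannot be told apart.

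The keratin reads fell on few genes. Of the 55 keratins, 12 reached 10 RPM in some library, 15 had reads but peaked at 6.38 RPM or below, and 28 had 0 reads in all 6 libraries. The silent 28 were hair, inner root sheath, suprabasal and other tissue-restricted keratins such as KRT31, KRT71 and KRT76, with KRT6B among them. Since each amplicon has its own amplification efficiency, levels are compared between libraries and not between genes.

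Keratins took 0.709% of all reads in wt replicate 1 (95% Clopper-Pearson interval 0.699% to 0.720%, counting error only) and 0.806% in wt replicate 2. The share was 1.46% and 0.945% in the eGFP libraries, 1.20% ± 0.361 (SD, n = 2), and 1.03% and 1.10% in the GIRK1 libraries, 1.06% ± 0.0495 (SD, n = 2). The GIRK1 libraries lay between the eGFP replicates, so the total differed by less than the spread of the controls. What differed was the make-up of that total.

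In wt replicate 2 and the eGFP cells KRT5 supplied the largest part of the keratin reads, 47.9%, 73.2% and 60.8%, and KRT17 supplied 19.5%, 5.86% and 10.1%. In the GIRK1 libraries KRT5 gave 39.1% and 36.9% of keratin reads and KRT17 gave 37.0% and 41.1%. The ratio of type II to type I reads was 6.87 and 4.27 in the eGFP libraries, 1.98 in wt replicate 2 and 1.11 and 1.04 in the GIRK1 libraries. Both GIRK1 libraries were below every one of these 3 controls, although wt replicate 2 was farther from the eGFP libraries than from the GIRK1 libraries, and the ratio was not tested.

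**Figure D1:**
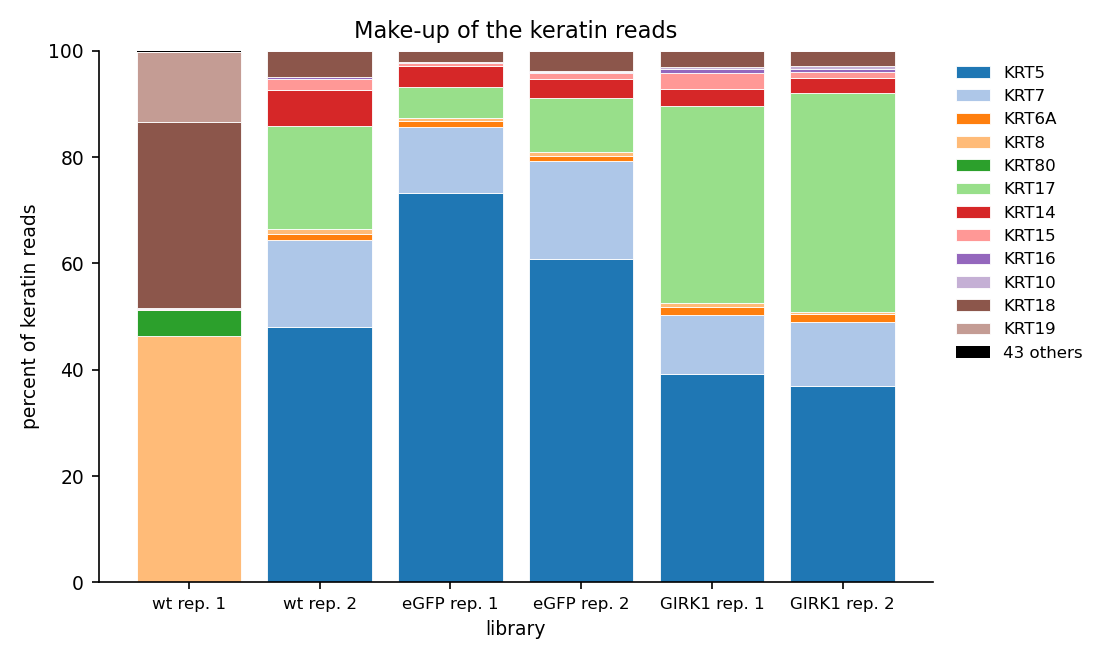
Percent of all keratin reads (vertical axis) given by each of 12 keratins and by the 43 others together, in each of the 6 libraries. Type II keratins are stacked below KRT17 and type I keratins from KRT17 upward. KRT5 fills 60.8% to 73.2% of the eGFP bars, KRT5 and KRT17 share the GIRK1 bars, and KRT8, KRT18 and KRT19 fill wt replicate 1.

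GIRK1 was compared with eGFP in a fit over 4 libraries, and with eGFP plus wt replicate 2 in a fit over 5, both with edgeR's quasi-likelihood test over all genes and Benjamini-Hochberg adjustment. Against eGFP, 13 keratins passed the filter on low counts. KRT80 passed it only through the GIRK1 libraries, where it was high, in this and the next comparison. Its count as higher is therefore a description. KRT10, KRT16 and KRT17, all type I, rose at an adjusted p below 0.05, beside 0.78% of all 11279 genes tested, and 0 keratins fell, beside 0.745% of all genes. At an unadjusted p below 0.05, 5 keratins were higher (KRT15 and KRT80 in addition) and 2 lower (KRT5 and KRT7), beside 8.42% and 10.8% of all genes. Against the 3 controls 2 of 13 keratins, KRT16 and KRT17, rose (0.799% of 11389 genes) and 0 fell (0.413%), with 4 keratins higher and 0 lower at an unadjusted p below 0.05 (8.58% and 10.2% of all genes), and 0 lower with DESeq2. The median log2 fold change of the keratins tested was -0.13 against eGFP and -0.19 against the 3 controls, beside 0.013 and -0.0074 over all genes tested.

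**Figure D2:**
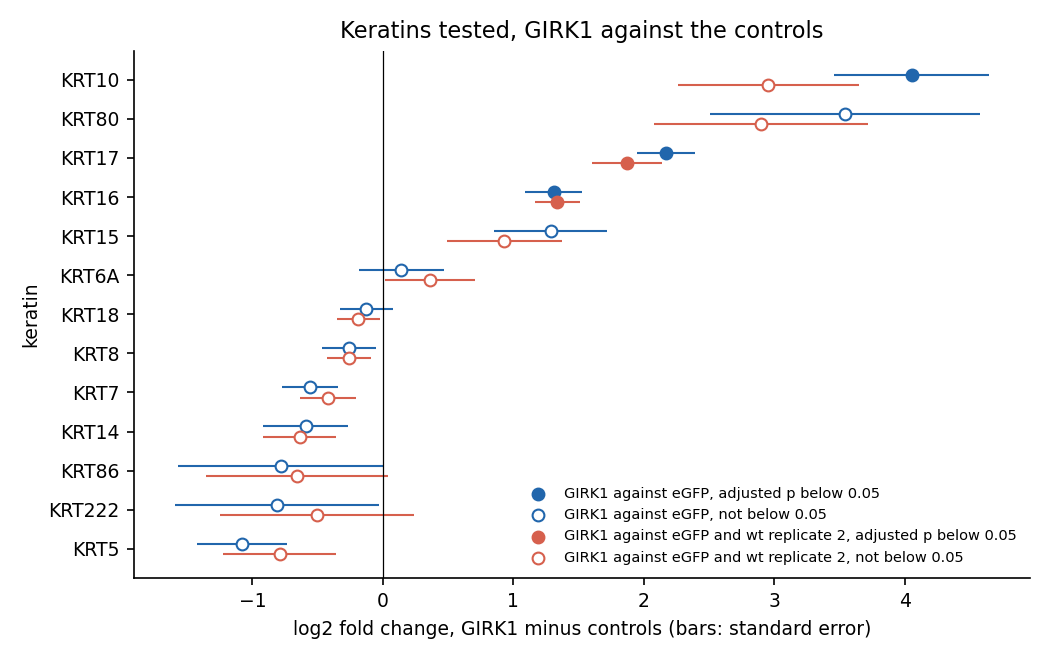
Log2 fold change of the 13 keratins tested (horizontal axis, GIRK1 minus controls, bars 1 standard error), against eGFP in blue and against eGFP with wt replicate 2 in red. Filled points passed an adjusted p of 0.05. KRT10, KRT16 and KRT17 are filled against eGFP and KRT16 and KRT17 against the 3 controls.

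KRT17, a type I keratin of basal and stress-responsive epithelium, is annotated on chromosome 17, from 41619441 to 41624842 on the minus strand (GRCh38). It stood at 1570 RPM in wt replicate 2, 853 and 952 RPM in the eGFP libraries and 3800 and 4513 RPM in the GIRK1 libraries. The GIRK1 libraries did not overlap the controls, and wt replicate 2 lay above both eGFP libraries. The log2 fold change was 2.17 (SE 0.22, edgeR adjusted p = 0.0104) against eGFP and 1.87 (SE 0.27, edgeR adjusted p = 0.0278) against the 3 controls. Among all amplicons of a library, KRT17 ranked 71 in wt replicate 2, 136 and 122 in eGFP and 27 and 17 in GIRK1. In bulk RNA, more cells of a type and more RNA per cell cannot be told apart.

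KRT16, the type I keratin that pairs with KRT6 chains, is the next gene on the chromosome (41609778 to 41615899, minus strand). It read 26.0 RPM in wt replicate 2, 27.1 and 26.0 RPM in eGFP and 73.2 and 62.0 RPM in GIRK1. The 3 controls were almost level, and both GIRK1 libraries were above them. The log2 fold change was 1.31 (SE 0.22, edgeR adjusted p = 0.0473) against eGFP and 1.34 (SE 0.17, edgeR adjusted p = 0.0178) against the 3 controls.

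KRT10, the type I keratin of suprabasal, differentiating keratinocytes, lies farther off in the same cluster (40818117 to 40822595, minus strand). It had 169 reads (10.5 RPM) in wt replicate 2, 5 and 37 reads (0.975 and 3.62 RPM) in eGFP, and 299 and 600 reads (26.9 and 58.0 RPM) in GIRK1. Both GIRK1 libraries were above every control, but the replicates of each group were apart as well. The log2 fold change was 4.05 (SE 0.59, edgeR adjusted p = 0.0347) against eGFP and 2.95 (SE 0.69, edgeR adjusted p = 0.104) against the 3 controls. KRT1, the type II partner of KRT10 in the epidermis, had 1 read in all, in GIRK1 replicate 2. Of the 12 keratins above 10 RPM, RefSeq gave promoter sequence for KRT5, KRT8 and KRT10. That of KRT10 is shown because KRT10 was called and because it holds the TATA box core TATAAA, in capitals, 29 bases before the start. The 100 bases before the KRT10 start, chr17:40822615-40822714 on the minus strand of GRCh38.p14, read 5′ to 3′:
KRT10: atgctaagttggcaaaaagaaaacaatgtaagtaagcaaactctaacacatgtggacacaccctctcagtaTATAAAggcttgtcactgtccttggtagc
On either strand, 4.99% of 35116 promoter windows of the same length held TATAAA, and the windows of KRT5 and KRT8 did not. This is a match of letters only. Near matches to TATAAA were not searched, so a window without it may still hold a similar stretch.

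These calls rested on single libraries to different degrees. Against eGFP, each such fit leaves 1 arm with a single library, assumed to vary like the other arm. KRT10 and KRT17 passed in all 4 of these fits, whereas KRT16 was lost without GIRK1 replicate 1 (adjusted p = 0.292) or without GIRK1 replicate 2 (adjusted p = 0.197, edgeR). Against the 3 controls, 0 keratins were called without eGFP replicate 2, GIRK1 replicate 1 or GIRK1 replicate 2, with only 31, 33 and 19 genes called in all, and 5 (KRT10, KRT6A and KRT80 in addition) without eGFP replicate 1, where 984 genes were called. Leaving out wt replicate 2 gives the comparison with eGFP. Both GIRK1 libraries lay above every control for KRT10, KRT16 and KRT17, so leaving out 1 library could not reverse their direction.

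KRT15, a type I keratin of basal progenitor cells, read 167 RPM in wt replicate 2, 67.7 and 110 RPM in eGFP and 316 and 127 RPM in GIRK1. GIRK1 replicate 2 lay below wt replicate 2, and the GIRK1 replicates were 2.48-fold apart. The log2 fold change against eGFP was 1.28 (SE 0.43, edgeR adjusted p = 0.187) and against the 3 controls 0.93 (SE 0.44, edgeR adjusted p = 0.308). KRT80, a type II keratin of differentiating epithelia, had 0.748 RPM in wt replicate 2, 0 and 0.489 RPM in eGFP and 6.03 and 1.55 RPM in GIRK1. Its log2 fold change against the 3 controls was 2.90 (SE 0.82, edgeR adjusted p = 0.140), from levels close to the floor in the controls.

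KRT5, the main type II keratin of basal cells (chromosome 12, 52514575 to 52520687, minus strand), read 3862 RPM in wt replicate 2, 10660 and 5741 RPM in eGFP and 4018 and 4052 RPM in GIRK1. The GIRK1 libraries were below both eGFP libraries and level with wt replicate 2, at 1.04 and 1.05 times its value. The eGFP replicates were themselves 1.86-fold apart. The log2 fold change was -1.08 (SE 0.35, edgeR adjusted p = 0.170) against eGFP and -0.79 (SE 0.43, edgeR adjusted p = 0.371) against the 3 controls, so no fall was called. Without eGFP replicate 2, the remaining fit against eGFP called KRT5 lower (log2 fold change -1.50, edgeR adjusted p = 0.000621), together with KRT7 and KRT14, and 2933 genes in all. In that fit the eGFP arm is 1 library. DESeq2 called KRT5 lower against eGFP as well (adjusted p = 0.0293). The ratio of KRT17 to KRT5 reads was 0.407 in wt replicate 2, 0.0800 and 0.166 in eGFP and 0.946 and 1.11 in GIRK1.

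KRT14, the type I partner of KRT5, read 535 RPM in wt replicate 2, 592 and 335 RPM in eGFP and 334 and 306 RPM in GIRK1. Both GIRK1 libraries were below all 3 controls, the upper one by little, and the log2 fold change against the 3 controls was -0.64 (SE 0.28, edgeR adjusted p = 0.284). KRT6A, a type II keratin induced by wounding, read 78.9 RPM in wt replicate 2, 167 and 93.0 RPM in eGFP and 147 and 151 RPM in GIRK1. Here the eGFP replicates enclosed the GIRK1 values, and the log2 fold change against eGFP was 0.14 (SE 0.33, edgeR adjusted p = 0.838). KRT7, a type II keratin of simple epithelia, read 1333 RPM in wt replicate 2, 1797 and 1746 RPM in eGFP and 1151 and 1325 RPM in GIRK1. GIRK1 replicate 2 was nearly level with wt replicate 2, and the log2 fold change against eGFP was -0.56 (SE 0.21, edgeR adjusted p = 0.228).

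The simple-epithelial pair was not called in either comparison. KRT8 (type II) read 78.0 RPM in wt replicate 2, 77.8 and 72.6 RPM in eGFP and 70.0 and 59.3 RPM in GIRK1. Its partner KRT18 (type I) read 392 RPM in wt replicate 2, 308 and 363 RPM in eGFP and 321 and 310 RPM in GIRK1. Against the 3 controls their log2 fold changes were -0.26 (SE 0.17) and -0.19 (SE 0.17), with edgeR adjusted p of 0.449 and 0.578. KRT19, a type I keratin of luminal cells, had 0 reads in all 5 of these libraries.

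By plain separation of the libraries, GIRK1 lay above both eGFP libraries for 5 of 13 keratins (29.1% of all genes tested) and below both for 4 (25.2%). Against the 3 controls GIRK1 lay above for 4 of 13 (21.6%) and below for 3 (19.6%). KRT80, which passed the filter only through the GIRK1 libraries, was among those above in each comparison. A simpler rule asked for mean RPM at least 2-fold apart, with the SD of either group under 0.7 of its mean. By it, 3 of 15 keratins with reads were higher against eGFP (KRT15, KRT16 and KRT17, 4.75% of all genes) and 1 lower (KRT5, 5.17%). Against the 3 controls the same rule called 2 of 16 higher (KRT16 and KRT17, 3.33%) and 0 lower (3.88%). KRT10 was not among them, since its SD in the controls exceeded that limit.

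**Figure D3:**
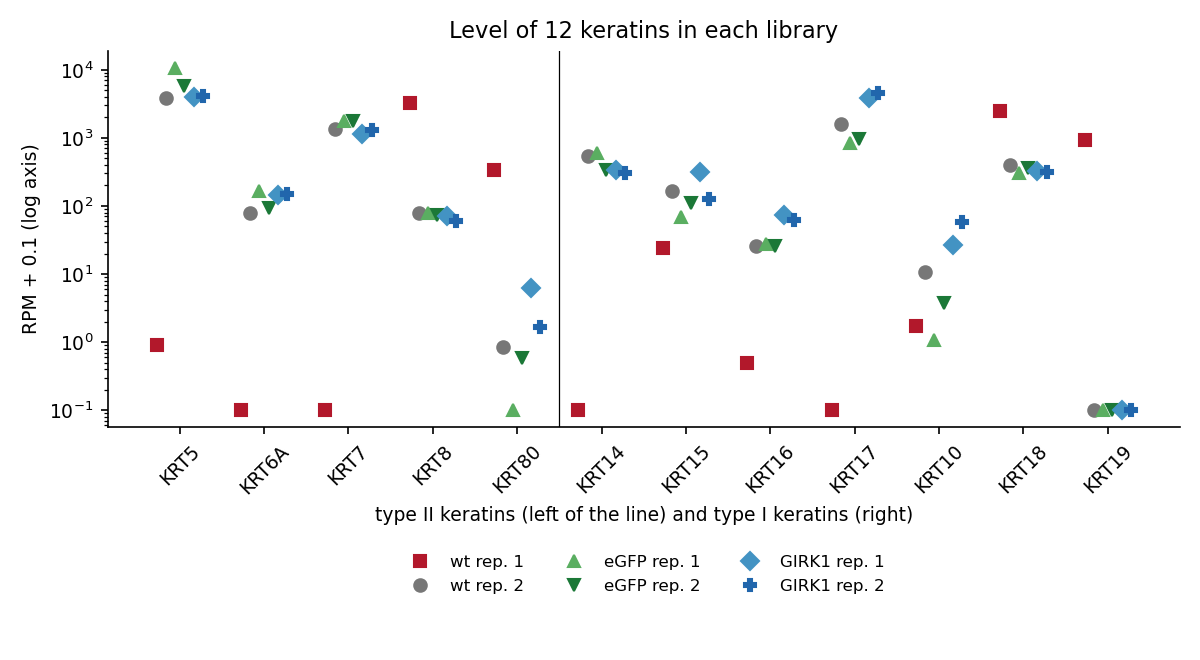
Level of the 12 keratins above 10 RPM (vertical axis, RPM plus 0.1, log scale) in each of the 6 libraries, 1 symbol per library. GIRK1 symbols lie above those of eGFP and wt replicate 2 for KRT10, KRT16, KRT17 and KRT80. Wt replicate 1 is at 0 for KRT6A, KRT7, KRT14 and KRT17 and highest for KRT8, KRT18, KRT19 and KRT80.

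Replicates of a group did not always match. Between the eGFP libraries 3 of 12 keratins compared were at least 2-fold apart (KRT10, KRT86 and KRT222), beside 14.4% of all genes. Between the GIRK1 libraries 4 of 12 were (KRT10, KRT15, KRT80 and KRT86), beside 4.11% of all genes. KRT17 and KRT16 were each within 1.19-fold between replicates of either group, and KRT7 was 1.15-fold and KRT14 1.09-fold apart between the GIRK1 libraries.

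Wt replicate 1 held a different keratin set. With no replicate, it was described against the range of the other 5 libraries, and a keratin was called apart at 4-fold or more. Of 13 keratins with at least 10 reads to compare, 5 were above that range (KRT8, KRT13, KRT18, KRT19 and KRT80), beside 8.44% of 11079 genes. Another 6 were below it (KRT5, KRT6A, KRT7, KRT14, KRT16 and KRT17), beside 5.78% of genes. KRT13, KRT19, KRT80 and KRT86 met the read minimum only through wt replicate 1, and the 6 keratins below it only through the other libraries, so these counts are a description.

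KRT8 stood at 3288 RPM in wt replicate 1, 42.2-fold above the highest other library (95% counting interval 39.9 to 44.6), and KRT18 at 2492 RPM, 6.35-fold above (6.20 to 6.51). KRT19 stood at 924 RPM against 0 reads elsewhere, which is at least 1579-fold higher when the floor of 3 reads per library is used. KRT80 stood at 340 RPM, 56.3-fold above (44.3 to 72.6). KRT8, KRT18 and KRT80 made up 46.4%, 35.1% and 4.79% of the keratin reads of the library, and KRT19 nearly all of the rest. KRT13, a type I keratin of mucosal epithelia, had 16 reads in wt replicate 1 and at most 1 elsewhere.

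The basal keratins were close to absent there. KRT5 had 2 reads (0.798 RPM), 4839-fold below the lowest other library (95% counting interval 1340 to 39960), and KRT16 had 1 read, 65.1-fold below (11.7 to 2573). KRT6A, KRT7, KRT14 and KRT17 had 0 reads, at least 65.9-fold, 962-fold, 256-fold and 712-fold lower than the lowest other library at the same floor. KRT15 kept 60 reads, 23.9 RPM, 2.83-fold below the others (2.20 to 3.71). KRT7, which is grouped with simple epithelial keratins, thus went with KRT5 and not with KRT8 and KRT18. Had wt replicate 1 been counted among the controls, 0 keratins would have been called, with 7 genes called in all.

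The genes lie in 2 clusters. By GENCODE release 29, 28 type I genes lie on chromosome 17 between 40654665 and 41624842, and 26 type II genes with KRT18 lie on chromosome 12 between 52168996 and 52952901 (GRCh38). Neighbours differed in behaviour. KRT14, KRT16 and KRT17 are consecutive, and KRT16 and KRT17 rose in GIRK1 while KRT14 read 334 and 306 RPM against 335 to 592 RPM in the controls. KRT15 and KRT19, 1087 bases apart, were at opposite ends of their ranges in wt replicate 1. The adjacent KRT8 and KRT18 were both high there.

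**Figure D4:**
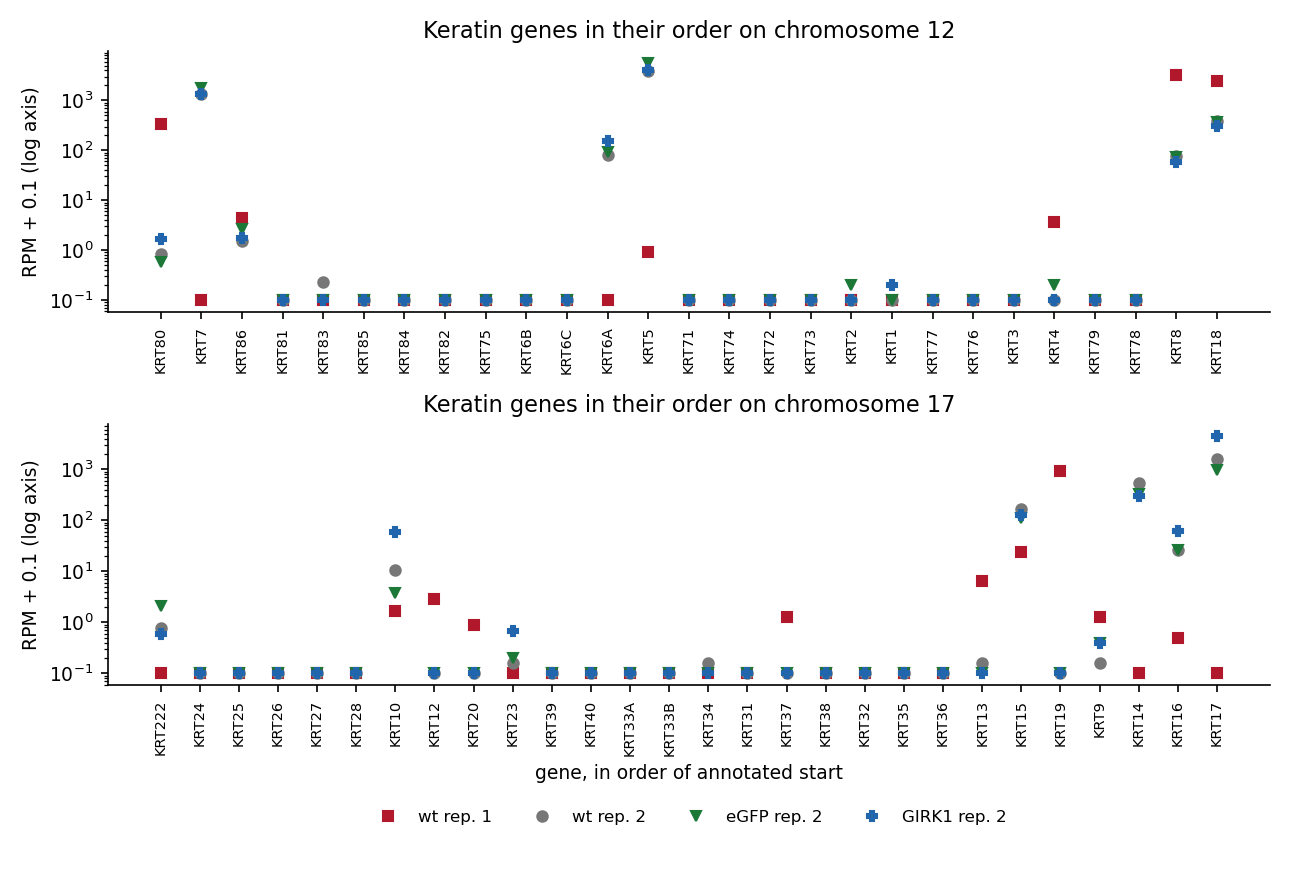
Level of all 55 keratins (vertical axis, RPM plus 0.1, log scale) in gene order along chromosome 12 (top) and chromosome 17 (bottom), for wt replicates 1 and 2, eGFP replicate 2 and GIRK1 replicate 2. Most genes sit at the bottom, 0 reads. KRT14, KRT16 and KRT17 stand at the right of chromosome 17, where wt replicate 1 is at or near 0, and KRT8 and KRT18 at the right of chromosome 12, where it is highest.

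Some keratins resemble each other closely enough to share reads. Of all windows of 50 bases in the annotated transcript, the share found unchanged in another keratin gene or pseudogene was 39.1% for KRT6A (KRT6B and KRT6C), 36.9% for KRT8, 31.8% for KRT18, 23.8% for KRT14, 22.0% for KRT16 and 17.4% for KRT17. It was 0% for KRT10 and 0.328% to 3.99% for KRT5, KRT7, KRT15, KRT19 and KRT80. Whether the amplicons lie in such windows was not determined, so levels of the first 6 carry that uncertainty. The annotated spans of KRT8 and KRT18, on opposite strands, overlap by 1084 bases.

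The 15 low keratins had at most 26 reads in a library. KRT86 had 11 reads in wt replicate 1, 23 in wt replicate 2, 4 and 26 in eGFP and 5 and 17 in GIRK1, and KRT222 had 0, 11, 2 and 20, 11 and 5 in the same order. In RPM, the GIRK1 libraries and the controls overlapped for both. KRT4, KRT12, KRT13, KRT20 and KRT37 had more reads in wt replicate 1 (2 to 16) than in any other library (at most 1).

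Partner genes of the keratin network were counted from lists, and their counts at an unadjusted p stand beside the same 8.42% of all genes higher and 10.8% lower against eGFP. Among the other intermediate filament genes 15 were measured and 5 tested against eGFP, with 0 called by edgeR (2 lower at an unadjusted p below 0.05, and 1, VIM, by DESeq2) and a median log2 fold change of -0.67. VIM, the mesenchymal filament protein vimentin, read 1359 RPM in wt replicate 2, 1849 and 1366 RPM in eGFP, 993 and 768 RPM in GIRK1 and 0.798 RPM in wt replicate 1 (log2 fold change against eGFP -0.92, SE 0.27, edgeR adjusted p = 0.148). Among genes that anchor or organise keratin filaments 17 were measured and 16 tested, with 0 called by edgeR (3 higher and 1 lower at an unadjusted p below 0.05) and a median of 0.11. DSP, which encodes the desmosomal keratin anchor desmoplakin, read 391 RPM in wt replicate 2, 320 and 327 RPM in eGFP and 628 and 1100 RPM in GIRK1 (log2 fold change against eGFP 1.38, SE 0.31, edgeR adjusted p = 0.0926). ITGA6, the hemidesmosomal integrin chain, read 513 RPM, 878 and 530 RPM, and 261 and 268 RPM in the same order of groups (-1.47, SE 0.31, edgeR adjusted p = 0.0852). Both missed the threshold in edgeR and passed in DESeq2, which called 681 genes in all against eGFP where edgeR called 172. For both, the GIRK1 libraries did not overlap the 3 controls. The same held for 21.6% of all genes tested above the controls and 19.6% below.

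TP63, the master regulator of basal keratins, had 0 reads in all 6 libraries. Its amplicon, bases 145 to 246 of the listed transcript, is present in 6 of 14 TP63 transcripts of the annotation, so transcripts without it were not measured.

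Markers of other cells were read beside these results. The basal marker LAMB3 fell in GIRK1 against eGFP (log2 fold change -2.81, SE 0.21, edgeR adjusted p = 0.0038) and was called against the 3 controls as well. KRT17 rose in the same libraries. Of 6 luminal markers tested 0 were called by edgeR (2 higher at an unadjusted p below 0.05, and 1, AGR2, by DESeq2). The summed level of all 12 luminal markers was 549 and 494 RPM in GIRK1 against 176 to 606 RPM in the controls. Most of that sum was XBP1, at 452 and 434 RPM in GIRK1 and 125 to 532 RPM in the controls, so it says little of the others. Of 7 fibroblast markers 2 were tested and DCN was higher against eGFP (27.0 and 25.2 RPM against 0.780 and 3.71 RPM). It was not called against the 3 controls (10.2 RPM in wt replicate 2), while COL1A2 and PDGFRA had 0 reads in every library. Against eGFP, DCN and AGR2 passed the filter on low counts only through the GIRK1 libraries, where they were high. Their counts as higher are therefore a description. The 3 endothelial markers summed to at most 0.399 RPM in any library and none was tested. Of the leukocyte markers PTPRC and CD3E had 0 reads in every library, and CD14, at 7.11 to 21.6 RPM outside wt replicate 1, was tested and called by neither tool (lower at an unadjusted p below 0.05).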

How the data were processed

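RNA of 6 libraries labelled as MCF10A was amplified with a transcriptome-wide AmpliSeq panel (1 amplicon per gene) and sequenced on an Ion S5 XL. The authors mapped reads to the panel's reference with the Ion Torrent software and deposited, per library, read counts on each amplicon and RPM (reads scaled to a common library total). Software versions are not given in the sources used here. Without molecular identifiers, PCR copies of 1 molecule count repeatedly, so intervals cover counting error only.

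From the deposited counts, edgeR 4.0.16 in R 4.3.3 (TMM, filterByExpr, quasi-likelihood test, Benjamini-Hochberg adjustment, threshold 0.05) was fitted over all genes, leaving out 10 spike-in amplicons with 0 reads. Levels and ranges are RPM. On simulated data with 200 genes changed 4-fold, 85.5% were recovered in each comparison, with 13 and 15 false calls. Those counts were drawn at the fit's own dispersions, so this checks the procedure and does not give the power in these libraries. Keratins that reached 10 RPM in a library are named with values. KRT13 and low keratins were named after their values were seen, as were DSP, ITGA6, VIM, LAMB3 and XBP1. The keratins and all lists were chosen with earlier results of these data known. Alternatives were DESeq2 1.42.0, other scalings and filters, covering reads, other library sets and leaving out each library. Positions come from GENCODE release 29 and promoters from RefSeq. The 1 keratin pseudogene on the panel was left out. Results for some genes on the lists are not reported here.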

Additional observations from a re-analysis of the deposited data

How the results depend on the processing

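KRT10, KRT16 and KRT17 were higher in GIRK1 under every alternative that gave them a value, in both comparisons, and KRT5, KRT7, KRT8, KRT14 and KRT18 were lower. For KRT10, KRT16 and KRT17 both GIRK1 libraries lay above every control, so leaving out a library could not have changed the direction. Called status moved more. In the tallies that follow, the alternative at an adjusted p below 0.1 repeats the main fit, so its outcome was fixed. Against the 3 controls, the fit without wt replicate 2 repeats the comparison with eGFP. Against eGFP, KRT17 passed in 13 of 15 alternatives, KRT10 in 11 of 14 and KRT16 in 9 of 15, and against the 3 controls in 11 of 15, 4 of 14 and 11 of 15. KRT6A against eGFP ranged from -0.27 (without eGFP replicate 2) to 0.69 with 1 library left out and was -0.023 under a replicate block over 6 libraries, and KRT80 was -4.35 with wt replicate 1 among the controls.

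Against eGFP, 5 keratins were higher and 1 lower (KRT5) with no filter on low counts (881 genes called) and with DESeq2 (681 genes). The count was 1 higher with covering reads and 0 with all 6 libraries in the fit, where 0 genes were called in all, also under the block. The 2-fold rule gave 1 lower and 1309 genes. Genes called were 111 with at least 10 reads in every library and 469 at an adjusted p below 0.1. Against the 3 controls 374 genes were called with no filter, 774 with DESeq2, 383 at an adjusted p below 0.1 and 980 by the 2-fold rule, and 0 keratins and 7 genes with wt replicate 1 added.

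Leaving out 1 library at a time gave 2 to 5 keratins higher, 0 to 3 lower and 89 to 2933 genes against eGFP, with a median of -0.12 to 0.30, and 0 to 5 higher and 19 to 984 genes against the 3 controls, with a median of -0.21 to 0.022. The sign of the keratin median therefore depends on single libraries.

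Whether replicate numbers pair the libraries cannot be told from these data. Differences between replicates correlated at 0.193 for eGFP and GIRK1, 0.13 for wt and eGFP and 0.036 for wt and GIRK1 over 9212 genes. The correlations with wt involve wt replicate 1, which stood apart. With the number as a block, 590 genes were called against eGFP and 558 against the 3 controls, where KRT10 passed as well (log2 fold change 3.40, edgeR adjusted p = 0.0135).

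With covering reads the keratin share was 0.995% in GIRK1 and 0.784% in wt replicate 2, and the type II to type I ratio 1.29 in GIRK1, 1.03 in wt replicate 1 and 2.34 in wt replicate 2. Without the 10 most abundant amplicons other than keratins the share was 1.24% in GIRK1, 0.809% in wt replicate 1 and 0.940% in wt replicate 2. Leaving out a replicate, which for the ratio was chosen after seeing the data, gave shares of 0.945% to 1.46% in eGFP and 1.03% to 1.10% in GIRK1, and ratios of 4.27 to 6.87 and 1.04 to 1.11. The cause of these changes was not tested. The counts apart in wt replicate 1 stayed at 4 or 5 above and 6 or 7 below. Depth limits wt replicate 1, whose 3 reads stand for 1.2 RPM.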
